A study of Mus musculus with 2 samples.

Results

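Ccl3, Ccl4 and Ccl5 are CC chemokines, small secreted proteins that attract leukocytes, and Ccr1 is a receptor of theirs. These 4 genes, of 32285 genes in the count tables, were picked by symbol after their levels in the same 2 libraries had been seen, so all of their values below are a description and none was tested. Single-cell RNA was captured from pancreatic tumours of KPPC mice, in 1 library from mice given vehicle and 1 from mice given takinib at 50 mg/kg, an inhibitor of the kinase TAK1. Mice of both groups were 6 weeks old and were treated for 14 days. The labels do not spell out the KPPC alleles, the promoter that drives them or how many mice went into a library. With 1 library per group there is no replicate check, and library, mouse and treatment cannot be told apart. Every interval given is a 95% exact interval that covers counting error only.

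Ccl3 and Ccl4 are close relatives made quickly by activated neutrophils, macrophages and lymphocytes, and their mRNAs are short-lived. Ccl5 is made later and more steadily, above all by cytotoxic T cells, NK cells and activated dendritic cells. Ccr1 is a receptor coupled to inhibitory G proteins that draws neutrophils, monocytes and macrophages towards Ccl3 and Ccl5, while Ccl4 is a much weaker ligand of it. In tumours these chemokines are known both for recruiting myeloid cells and for bringing T cells to dendritic cells.

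After filtering, 9558 vehicle cells with 42000538 unique molecular identifiers (UMIs, each standing for 1 captured RNA molecule) and 25183 takinib cells with 119726977 UMIs were kept. Median depth was 3556 UMIs in vehicle and 2887 in takinib, and the median mitochondrial share was 8.70% and 1.79%. Cell barcodes past the filters that occurred in both libraries numbered 400, which is 4.05% of the vehicle barcodes. The vehicle library held 1075 cells of female and 3087 of male origin by their Xist and Y-linked UMIs, whereas the takinib library held 0 Y-linked UMIs. Classes were made from marker genes after all chemokine and chemokine receptor genes had been left out of the clustering, so that none of these 4 genes defined a class. Neutrophil-like cells were 2.96% of vehicle and 49.3% of takinib cells, and macrophage-like cells were 51.4% and 29.0%. Each of the 7 classes with at least 100 cells in both libraries had its markers: from 5 of 9 (dendritic-like, vehicle) to all of them were found in at least 10% of its cells, and no marker was at 0. Of the 10 neutrophil markers, 8 passed that level in the vehicle neutrophil-like cells and all 10 in the takinib ones.

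In the mouse genome (GRCm38), Ccl3 (ENSMUSG00000000982, chromosome 11, 83647844 to 83649355, minus strand) and Ccl4 (ENSMUSG00000018930, chromosome 11, 83662584 to 83664683, plus strand) lie 13228 bases apart and point away from each other. Ccl5 (ENSMUSG00000035042, 83525778 to 83530518, minus strand) lies on the same chromosome, and Ccr1 (ENSMUSG00000025804, 123962124 to 123968692, minus strand) on chromosome 9. The coding sequences of Ccl3 and Ccl4 were 68.4% identical over 285 aligned columns, and their transcripts shared no exact run longer than 9 bases. The sequence before the Ccl3 start site is shown because Ccl3 had the highest level of the 4 genes in takinib. It is the 250 bases before the RefSeq start on GRCm38.p6, chr11:83649379-83649628, minus strand, read 5′ to 3′, with motif matches in capitals.

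Ccl3: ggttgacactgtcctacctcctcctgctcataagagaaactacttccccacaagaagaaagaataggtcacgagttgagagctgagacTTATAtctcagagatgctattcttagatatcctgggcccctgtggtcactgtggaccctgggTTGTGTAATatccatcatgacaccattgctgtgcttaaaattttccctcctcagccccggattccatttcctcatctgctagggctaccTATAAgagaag

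The capitals mark a TATAA that ends 30 bases upstream of the GENCODE start of Ccl3, a TATAA on the opposite strand farther upstream, and TTGTGTAAT, which matches TTNNGNAAT, a C/EBP-type motif. Over 32851 promoters of the same 300-base window, TATAA was present on either strand in 24.9% and TTNNGNAAT in 11.5%. No match to GGNNTTNCC (kappaB-type, in 16.0% of promoters) or TGANTCA (AP-1-type, in 7.81%) was found in this window of Ccl3, and none of the 4 motifs matched in that of Ccr1. Promoter sequences were at hand for 2 of the 4 genes and not for Ccl4 and Ccl5. The matches are letters in a window and were not tested as binding sites.

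The 3′ ends differed in ATTTA, the core of the AU-rich elements through which short-lived cytokine mRNAs are removed. The 3′ untranslated region of Ccl3 held 5 copies in 409 bases and that of Ccl4 held 2 in 302 bases. Ccl5 held 0 in 199 bases and Ccr1 held 1 in 1300 bases. As many copies as in Ccl3 were present in 21.3% of 21020 protein-coding genes, and as many as in Ccl4 in 46.5%. The densest short stretch of each is shown, with ATTTA in capitals.

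Ccl3: actcttcacttgaaattttATTTAATTTA

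Ccl4: tcagatttcctgcccctcttcttaATTTA

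Levels below are given as CPM, the UMIs of a gene scaled to 1000000 UMIs of its class. UMIs count captured 3′ ends, so no correction for gene length was made. A gene was called higher or lower where log2 of the takinib over the vehicle CPM, each with 10 CPM added, passed 1. Among all kept cells 4 of the 4 genes were higher, where 2.62% of 15600 genes were. Ccl3 was 110 CPM in vehicle and 2425 in takinib, Ccl4 145 and 1479, Ccl5 20.7 and 181, and Ccr1 98.0 and 226. These levels over all cells mix cell composition with level per class.

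**Figure D1:**
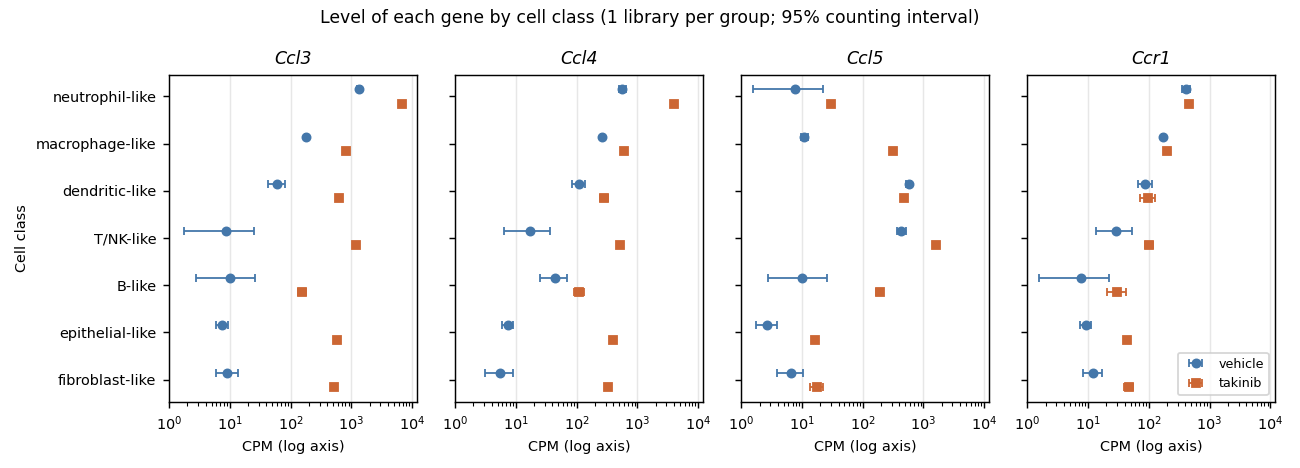
Level of each gene in CPM on a log axis, by cell class, in vehicle (circles) and takinib (squares), with 95% counting intervals from 1 library each. Ccl3 and Ccl4 were highest in takinib neutrophil-like cells, at 6775 and 3967 CPM, while Ccl5 was highest in takinib T/NK-like cells and Ccr1 lay close together between libraries in neutrophil-like and macrophage-like cells.

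Neutrophil-like cells held the highest Ccl3 and Ccl4 of the 7 classes in both libraries. Ccl3 stood at 1336 CPM in vehicle (532 UMIs in 283 cells) and at 6775 CPM in takinib (217785 UMIs in 12424 cells), 5.07-fold higher (4.66 to 5.53). Ccl4 stood at 565 and 3967 CPM, 7.02-fold higher (6.16 to 8.04). Both ligands were thus several times higher per neutrophil UMI in the takinib library, on top of the larger number of neutrophil-like cells. Ccl5 was low in these cells in both libraries, 7.54 CPM from 3 UMIs in vehicle and 30.5 CPM in takinib. Ccr1, which neutrophils use to sense these ligands, was 412 CPM in vehicle and 461 in takinib, a ratio of 1.12 (0.959 to 1.31). Of the 4 genes, 3 were called higher in this class, where 3.82% of 10617 genes were. The median gene of this class had a log2 ratio of -0.34, and relative to it Ccl3 was at 2.68, Ccl4 at 3.13, Ccl5 at 1.55 and Ccr1 at 0.50.

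Per cell, the shift was seen both in how many neutrophil-like cells had a UMI and in how many UMIs they had. At least 1 Ccl3 UMI was found in 41.7% of vehicle and 80.5% of takinib cells, and in 38.2% and 75.3% once each cell was thinned to 1000 UMIs. The median takinib cell held 8 Ccl3 UMIs, its upper quartile 23 and the highest cell 270, against a median of 0, an upper quartile of 2 and a highest of 18 in vehicle. For Ccl4 the share of cells was 14.1% in vehicle and 59.9% in takinib, and the highest cell held 29 and 317 UMIs. Cells that should hold little Ccl3 served as a measure of free RNA. B-like cells had a Ccl3 UMI in 1.46% of vehicle cells (median depth 1546 UMIs) and 18.2% of takinib cells (1345 UMIs). Epithelial-like cells had one in 2.33% (4981 UMIs) and 51.3% (9451 UMIs). An unnamed takinib cluster led by haemoglobin genes had one in 45.0% (5986 UMIs). Thinned to 1000 UMIs, the takinib shares were 12.4% in B-like and 31.1% in epithelial-like cells. Neutrophil-like cells had median depths of 1222 and 1856 UMIs.

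The vehicle and takinib neutrophil-like cells lay in different clusters. Of the 283 vehicle cells, 263 were in a cluster led by Siglecf, Hist1h1d and Csf1, and all but 13 of the takinib cells were in 4 other clusters. Within takinib, the cluster led by Acod1, Ccl4 and Cxcl2 (4422 cells) had Ccl3 at 9633 CPM and Ccl4 at 6312, and alone held 47.5% and 51.0% of the library's Ccl3 and Ccl4 UMIs. The cluster led by Chil1, Lcn2 and Lst1 (4545 cells) had Ccl3 at 8222 CPM and Ccl4 at 3286. Both clusters thus exceeded every other class in the library for both ligands.

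Low producers were present as well. The cluster led by Ppy, Retnlg and Cxcr2 (2771 cells), genes of circulating mature neutrophils apart from the pancreatic hormone Ppy, had Ccl3 at 1451 CPM and Ccl4 at 1249. The cluster of immature cells led by the granule genes Camp, Ngp and Ltf (673 cells) had Ccl3 at 1377 CPM and Ccl4 at 935. The Ccl3 intervals of both overlapped that of the vehicle cluster, which stood at 1530 CPM. Their Ccl4 intervals (1218 to 1279 and 907 to 963) lay above that of the vehicle cluster, which had 660 CPM (576 to 752). Ccr1 followed another order: it was highest in the Ppy-led cluster, at 655 CPM, then 528 in the Acod1-led, 337 in the Chil1-led and 249 in the immature cluster, against 434 in the vehicle cluster.

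**Figure D2:**
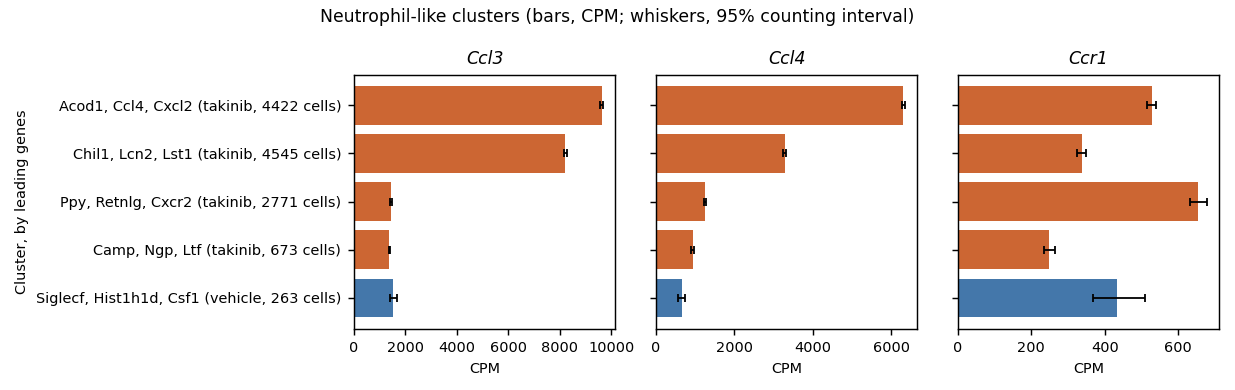
Ccl3, Ccl4 and Ccr1 in CPM (bars) with 95% counting intervals (whiskers) in the neutrophil-like clusters with at least 50 cells of a library, named by their leading genes. The takinib clusters led by Acod1 and Chil1 held Ccl3 at 9633 and 8222 CPM and the other 3 between 1377 and 1530, while Ccr1 was highest in the cluster led by Ppy.

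The mitochondrial share, a sign of cell quality, moved with this comparison: the vehicle neutrophil-like cells had a median mitochondrial share of 14.1% and the takinib ones of 0.935%. Only 37 vehicle cells had at most 10% mitochondrial UMIs, and among those Ccl3 had a log2 ratio of 2.89, Ccl4 of 3.18 and Ccr1 of 0.82. Its part in the levels of the full class was otherwise not tested.

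Within single neutrophil-like cells the 2 neighbouring ligand genes went together, and Ccr1 had no steady relation to Ccl3. In takinib 69.6% of cells with a Ccl3 UMI had a Ccl4 UMI, against 19.7% of cells without, and in vehicle the shares were 28.0% and 4.24%. After thinning the takinib shares were 64.0% and 18.0%. Ccr1 was found in 56.8% of takinib cells with Ccl3 and in 57.5% of those without, and in 33.7% and 39.3% after thinning. In vehicle the Ccr1 shares were 42.4% and 34.5%, and 31.5% and 28.0% after thinning. All of these shares pool clusters with unlike Ccl3 and Ccr1 levels. Ccl3 made up 63.1% of the summed Ccl3 and Ccl4 UMIs of takinib neutrophil-like cells (62.9 to 63.2) and 70.3% of those in vehicle (66.9 to 73.5).

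Macrophage-like cells were the main holders of Ccl3, Ccl4 and Ccr1 in the vehicle tumour. They held 84.2% of its Ccl3, 92.0% of its Ccl4 and 89.6% of its Ccr1 UMIs. In takinib the neutrophil-like cells held 75.0%, 72.0% and 54.8%, and macrophage-like cells 13.8%, 17.0% and 36.4%. For Ccl5 the order was different. Dendritic-like cells held 43.8% of the vehicle Ccl5 UMIs, macrophage-like cells 26.9% and T/NK-like cells 17.5%, whereas in takinib macrophage-like cells held 71.6%, T/NK-like cells 16.5% and dendritic-like cells 1.27%.

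**Figure D3:**
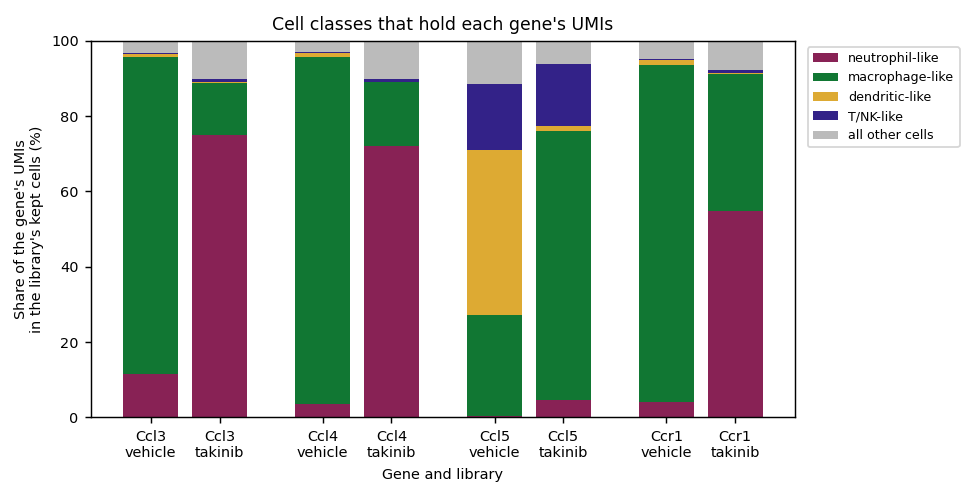
Share of each gene's UMIs (percent of the library's kept cells) held by 4 cell classes and by all other cells, for vehicle and takinib. The largest share of Ccl3, Ccl4 and Ccr1 lay in macrophage-like cells in vehicle and in neutrophil-like cells in takinib, and that of Ccl5 in dendritic-like cells in vehicle (43.8%) and macrophage-like cells in takinib (71.6%).

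As a whole class, macrophage-like cells had higher ligand levels in takinib and nearly the same receptor level. Ccl3 stood at 181 CPM in vehicle and 808 in takinib (4.45-fold, 4.31 to 4.60), and Ccl4 at 262 and 607 (2.32-fold, 2.25 to 2.39). Ccl5 stood at 10.9 and 313 CPM (28.7-fold, 25.2 to 32.8). Ccr1, through which monocytes are drawn into inflamed tissue, stood at 172 and 199 CPM (1.16-fold, 1.11 to 1.20). Of the 4 genes, 3 were called higher, where 1.80% of 12029 genes were.

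The direction held for Ccl5 and Ccr1, in part for Ccl3 and not for Ccl4 in the macrophage clusters that both libraries filled. Those with 100 or more cells on both sides were led by H2-Ab1, H2-Eb1 and H2-Aa (MHC class II genes), by Chil3, Atp6v0d2 and Ear2 (genes of alveolar-type macrophages) and by Trf, Alox15 and Apoe. Ccl3 was 163 and 273 CPM in the first (vehicle and takinib), 270 and 232 in the second and 168 and 206 in the third, so that its direction was not the same in all 3. Ccl4 was lower in takinib in each of them: 272 and 242 CPM, 218 and 113, and 269 and 83.8. Ccl5 was higher in takinib in each: 12.4 and 85.8 CPM, 3.46 and 28.2, and 10.8 and 38.0. Ccr1 was slightly higher in each, by 1.25, 1.26 and 1.41-fold.

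Summed over these 3 clusters (4898 vehicle and 2355 takinib cells), an alternative added after the data had been seen, Ccl3 was 1.28-fold higher in takinib (1.22 to 1.34), Ccl4 was 0.461-fold of vehicle (0.438 to 0.486) and Ccl5 was 3.26-fold higher (2.79 to 3.82). The direction of Ccl4 was therefore opposite to that of the whole class. Ccr1 came to 0.979-fold (0.931 to 1.03) although it was higher in each cluster, because most takinib cells of the sum lay in the Chil3-led cluster, where Ccr1 was lowest.

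The high macrophage levels lay in clusters that were almost free of vehicle cells. The takinib cluster led by H2-M2, Ccl5 and Gpnmb (1147 cells) had Ccl3 at 1675 CPM, Ccl4 at 1143 and Ccl5 at 684. The cluster led by U90926, Saa3 and F13a1 (2215 cells) had Ccl3 at 1064, Ccl4 at 971 and Ccl5 at 364 CPM. Monocyte-type cells led by Vcan, S100a4 and Ccr2 (836 cells) had Ccl3 at 665, Ccl4 at 414 and Ccl5 at 161 CPM. In the cluster led by Ccl8, Gpnmb and Selenop (760 cells) the ligands were uncoupled, with Ccl5 at 405 CPM but Ccl3 at 145 and Ccl4 at 99.1. Ccr1 varied little among these 4, from 176 to 261 CPM. Whether the takinib-filled clusters are other cells or the same cells in another state was not tested.

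**Figure D4:**
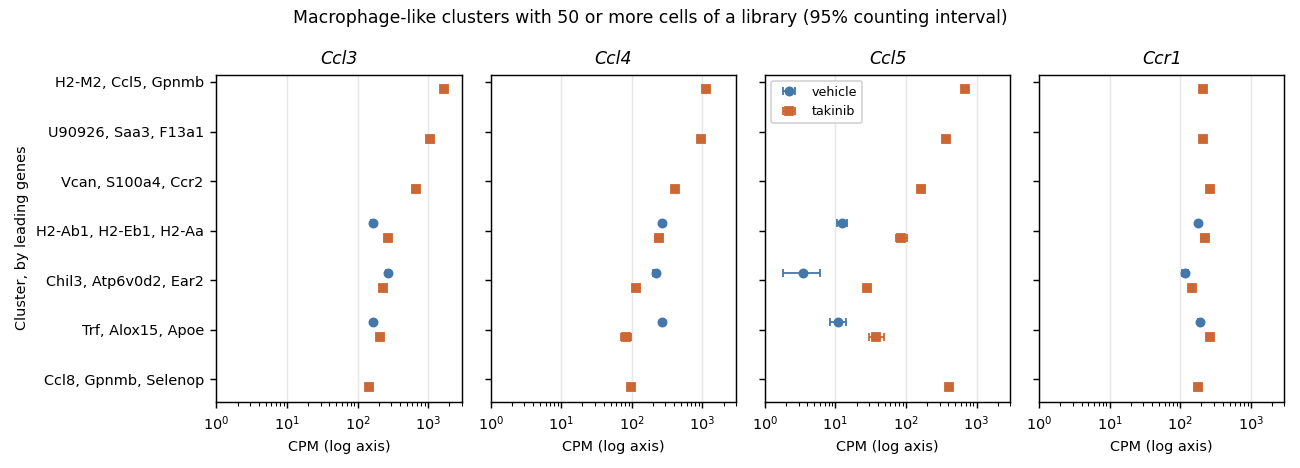
Level of each gene in CPM on a log axis in the macrophage-like clusters, named by their leading genes, in vehicle (circles) and takinib (squares) where a library had at least 50 cells, with 95% counting intervals. In the 3 clusters filled by both libraries Ccl4 was lower and Ccl5 higher in takinib, and the Ccl3 levels of 665, 1064 and 1675 CPM lay in 3 clusters with at most 4 vehicle cells each.

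Ccl5 in takinib macrophage-like cells came from few cells. A Ccl5 UMI was found in 12.9% of them, and the 76 cells with 50 or more UMIs, 1.04% of the class, held 62.0% of its Ccl5 UMIs. One cell held 980. In vehicle 2.20% of macrophage-like cells had a Ccl5 UMI and the highest held 25. The 76 cells had macrophage markers at 4815 CPM, against 4738 in cells without Ccl5, and T cell markers at 52.7 against 13.9 CPM, where T/NK-like cells without Ccl5 had 2321 CPM. Epithelial-like cells, taken as background, had a Ccl5 UMI in 1.35% of vehicle cells (median 4981 UMIs) and 6.29% of takinib cells (9451), beside macrophage-like median depths of 3934 and 5923 UMIs.

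Ccl3 and Ccl4 were also paired within single macrophage-like cells. Among vehicle cells with Ccl3, 44.4% had Ccl4, against 11.3% of the rest, and in takinib the shares were 54.4% and 17.9%. After thinning they were 31.0% and 9.06% in vehicle and 41.7% and 9.91% in takinib. The balance of the pair differed between libraries: Ccl3 was 40.9% of their summed UMIs in vehicle (39.9 to 41.9) and 57.1% in takinib (56.7 to 57.5). Vehicle cells of female origin had Ccl3 at 256 CPM, Ccl4 at 184, Ccl5 at 8.30 and Ccr1 at 128, and those of male origin 161, 266, 7.54 and 175. The takinib level was above both for each gene.

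Among the 7 compared classes, the Ccl5 CPM was above vehicle in takinib in all but dendritic-like cells, though short of a call in fibroblast-like cells (log2 ratio 0.73). In dendritic-like cells Ccl5 was at 574 CPM in vehicle and 480 in takinib (0.836-fold, 0.713 to 0.979). When chemokine genes were kept in the clustering, the log2 ratio was 0.80 in place of -0.25, and the class held 113 vehicle and 114 takinib cells in place of 242 and 121. Most of this Ccl5 lay in a sub-cluster led by Ccl22, Ccr7 and Fscn1, genes of mature, migrating dendritic cells. In vehicle its 36 cells had Ccl5 at 3973 CPM and held 96.6% of the class's Ccl5 and 42.3% of that of the whole library. In takinib its 17 cells had 2988 CPM and held 69.8% of the class. Ccr1 had 0 UMIs in this sub-cluster in both libraries, which allows up to 39.8 CPM in vehicle and 57.4 in takinib. The other cells of this class lay largely apart between the libraries. Vehicle cells filled sub-clusters led by Ly6c2, Plac8 and Lst1 (72 cells), Retnla, Dcstamp and Mmp12 (71) and Cxcl10, Thbs1 and Fos (26), none of which had 10 takinib cells. Of the dendritic markers, Flt3 was found in 3%, 4% and 3% of their cells, Zbtb46 in 0%, 6% and 0% and Cd209a in 1%, 39% and 0%. In the sub-clusters led by Ccl22 and by Ppt1, Flt3 was found in 32% and 53% of cells, and in that led by C1qa in 0%. Many vehicle cells of the class thus had few dendritic markers, and the class levels mix them with the rest. Takinib cells filled sub-clusters led by the haemoglobin gene Hbb-bs (36), by C1qa (17) and by S100a9, S100a8 and Lcn2 (11), which had fewer than 10 vehicle cells each. The sub-cluster led by Ppt1, Itgae and Xcr1, the last a marker of cross-presenting dendritic cells, had 16 vehicle and 24 takinib cells.

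Ccl3 and Ccl4 of the whole dendritic-like class were 60.3 and 108 CPM in vehicle and 639 and 284 in takinib, and Ccr1 was 87.4 and 96.0 CPM. Of the 4 genes, 2 were called higher, where 3.43% of 1951 genes were. In takinib the Ppt1-led sub-cluster held 54.9% of the class's Ccl3, at 1508 CPM, against 0 UMIs in its vehicle cells (up to 63.9 CPM). The 11 takinib cells led by S100a9, S100a8 and Lcn2 held 40.4% of the Ccl3 and 56.4% of the Ccl4, with the neutrophil gene S100a8 at 13570 CPM. Without them, a step added after the data had been seen, takinib Ccl3 was 434 CPM (log2 ratio 2.66 in place of 3.21) and Ccl4 was 141 CPM (0.35 in place of 1.31), no longer past 1. Ccl4 was also short of the threshold at 10% mitochondrial UMIs (0.89), and Ccl3 (0.88) and Ccl4 (-0.02) were against the 13 vehicle cells of female origin. After the neutrophil subtraction described below, Ccl4 was 107 CPM in vehicle and 145 in takinib, again short of the threshold. With chemokine genes kept in the clustering the Ccr1 log2 ratio was 1.18 in place of 0.12.

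T/NK-like cells had Ccl5 at 432 CPM in vehicle (152 UMIs in 217 cells) and at 1633 in takinib (3579 UMIs in 1049 cells), 3.78-fold higher (3.21 to 4.47). Ccl5 is stored and released by cytotoxic lymphocytes, and in takinib it was unevenly spread over sub-clusters. The sub-cluster led by Gzma and cell-cycle genes (37 cells) had 7481 CPM, the one led by Ly6c2, Cd8b1 and Cd8a (241 cells) 3091, and the one led by Ly6c1 and Igfbp4, with Tcf7 and Ccr7 of naive T cells among its leading genes (348 cells), 107. Cells led by Il17a and Trdv4, of the gamma-delta type (64 cells), had 58.1 CPM. Most vehicle cells, 203 of 217, lay in a sub-cluster led by mitochondrial genes with Ccl5 at 441 CPM, and the median mitochondrial share of the class was 13.7% in vehicle and 2.90% in takinib. The log2 ratio of 1.89 was 0.80 when chemokine genes were kept in the clustering and 1.00 at a coarser clustering. Of the 4 genes, 4 were called higher in T/NK-like cells, where 6.35% of 5162 genes were.

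Most Ccl3 UMIs of the takinib T/NK-like cells lay in 1 sub-cluster. Over the class, Ccl3 was 8.53 CPM in vehicle, from 3 UMIs, and 1210 in takinib, and Ccl4 was 17.1 and 510 CPM. A takinib sub-cluster of 206 cells led by Ccl3, Cxcl2 and Lcn2 had Ccl3 at 3871 CPM and held 87.1% of the class's Ccl3 UMIs. It also had the neutrophil gene S100a8 at 20246 CPM, in 99.0% of its cells, beside the T cell gene Cd3e in 49.0%. Without it, a step added after the data had been seen, takinib T/NK-like cells had Ccl3 at 214 CPM, Ccl4 at 154, Ccl5 at 1862 and Ccr1 at 39.5. Ccl3 then had a log2 ratio of 3.59 in place of 6.04 and Ccl4 of 2.60 in place of 4.27, both still past 1. Ccr1 had 0.37 in place of 1.52. Of the remaining sub-clusters, the gamma-delta type had Ccl3 at 702 CPM and Ccr1 at 174, with S100a8 at 4916 CPM in 85.9% of its cells.

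Neutrophil transcripts moved with Ccl3 and Ccl4 in the other 6 compared classes of the takinib library. The summed S100a8 and S100a9 level was 62376 CPM in vehicle and 135942 in takinib neutrophil-like cells. In those 6 classes it ranged from 64.8 to 315 CPM in vehicle and from 3965 to 13779 in takinib. In takinib T/NK-like cells it was 44830 CPM in cells with 10 or more Ccl3 UMIs and 5293 in cells with none, in fibroblast-like cells 33239 and 968, and in epithelial-like cells 20773 and 2123. An unnamed takinib cluster of 563 cells led by the B cell genes Cd79a, Cd79b and Ighd had S100a8 and S100a9 at 71481 CPM together, with Ccl3 at 5882 and Ccl4 at 3221. Free RNA and captures of more than 1 cell would both carry such transcripts, and their separate parts were not tested.

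Epithelial-like, fibroblast-like and B-like cells had low Ccl3 and Ccl4 in vehicle and higher levels in takinib. Ccl3 was 7.40 and 579 CPM in epithelial-like, 9.12 and 526 in fibroblast-like and 10.2 and 156 in B-like cells (vehicle and takinib). Of the measured genes, 4 of 4 were called higher in epithelial-like (2.33% of all genes), 3 of 4 in fibroblast-like (4.59%) and 3 of 3 in B-like cells (5.03%), where Ccr1 had too few UMIs. Ccl5 in B-like cells was 10.2 and 191 CPM, and 2 takinib cells held 65.4% of its UMIs there. Ccl4 in B-like cells was 43.4 and 110 CPM, and all 17 vehicle UMIs were in 1 cell. Its log2 ratio of 1.17 was -0.77 at 2000 UMIs and 1000 genes per cell and -0.40 at 10% mitochondrial UMIs. With every cluster named by its best score, which brought B-like cells to 1232 in takinib, Ccl4 was at 5.22 and Ccl3 at 6.78 in place of 3.04. The vehicle empty droplets had Ccl3 at 70.6 CPM, Ccl4 at 89.0, Ccl5 at 9.21 and Ccr1 at 75.2, above the Ccl3, Ccl4 and Ccr1 levels of these 3 classes in vehicle. No empty droplets of the takinib library were analysed here.

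Levels were recomputed after subtracting from each class as much of the takinib neutrophil-like profile as would carry all of its S100a8 and S100a9. In takinib B-like cells Ccl3 and Ccl4 then came to 0. Ccl3 went from 526 to 107 CPM in fibroblast-like and from 579 to 159 in epithelial-like cells, and Ccl4 from 328 to 84.0 and from 404 to 163. Ccr1 went from 46.5 to 18.7 CPM in fibroblast-like, from 44.3 to 16.2 in epithelial-like and from 100 to 59.6 in T/NK-like cells, and its log2 ratios of 0.40, 0.47 and 0.88 were no longer past 1. In macrophage-like cells Ccl3 went from 808 to 427 CPM and Ccl4 from 607 to 393, and the log2 ratio of Ccl4 to vehicle was then 0.61, no longer past 1. By cluster, the H2-M2-led and Saa3-holding macrophages kept Ccl3 at 936 and 664 CPM, whereas the Vcan-led monocyte-type cells came to 0. These monocyte-type cells had S100a8 and S100a9 at 17097 CPM together, and 12.6% of their UMIs were removed. The step counts any S100a8 and S100a9 that a cell makes itself as neutrophil RNA, so this 0 does not show that they lack Ccl3. Ccl5 was nearly the same before and after in macrophage-like cells, 313 and 331 CPM, and Ccr1 was 199 and 182.

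**Figure D5:**
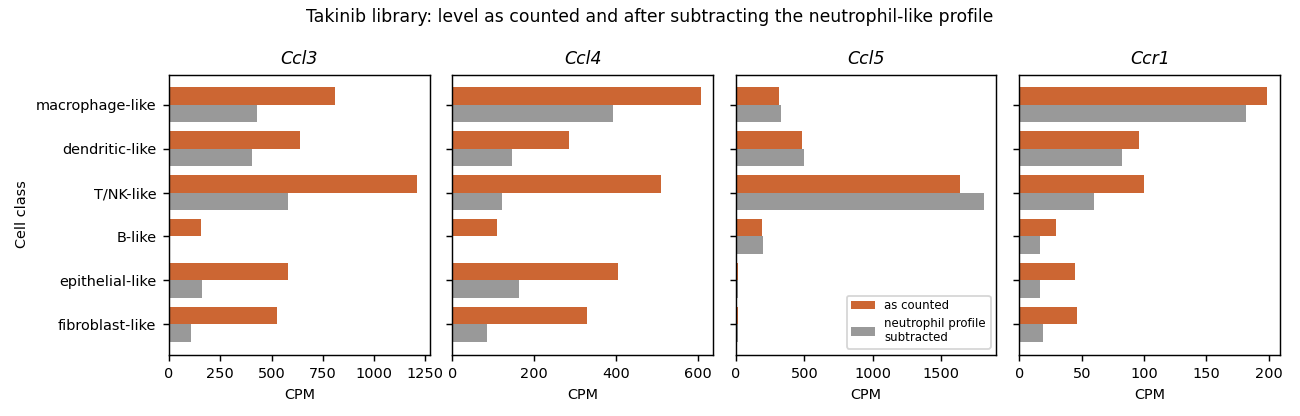
Level of each gene in CPM in 6 takinib classes, as counted (upper bars) and after subtraction of the neutrophil-like profile scaled to S100a8 and S100a9 (lower bars). Ccl3 and Ccl4 came to 0 in B-like cells and to 427 and 393 CPM in macrophage-like cells, while Ccl5 in T/NK-like cells did not fall.

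Most other genes of the same system stayed within the threshold in macrophage-like and neutrophil-like cells. The other Ccr1 ligands, Ccl6, Ccl7 and Ccl9, stayed within the threshold in macrophage-like cells (0 of 3 called, median log2 ratio 0.05 against -0.01 for all genes). Ccl6 was the most abundant, 5396 and 5536 CPM in vehicle and takinib, and Ccl9 was 756 and 784. In neutrophil-like cells 0 of 3 were called (median 0.57 against -0.34), with Ccl6 at 796 and 1405 CPM. Of 11 further CC chemokine ligands, 7 were measured in macrophage-like cells and 2 were higher, where 1.80% of all genes were: Ccl2, the main monocyte attractant, went from 69.0 to 176 CPM and Ccl8 from 9.08 to 83.9 (list median 0.04). In neutrophil-like cells (3.82% of all genes higher and 12.0% lower) 6 were measured, with Ccl2 higher (2.51 CPM from 1 UMI, and 80.7) and Ccl12 lower (17.6 and 3.05), and a list median of -0.43.

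By level, Ccr1 in takinib was ordered from neutrophil-like (461 CPM) and macrophage-like (199) to T/NK-like (100) and dendritic-like cells (96.0), whose intervals overlapped, then fibroblast-like (46.5) and epithelial-like cells (44.3), whose intervals overlapped as well, and B-like cells (29.5), whose interval reached that of fibroblast-like cells. Without the S100a8-rich sub-cluster, which held 71.4% of their Ccr1 UMIs, T/NK-like cells had 39.5 CPM from 63 UMIs. That was below fibroblast-like and epithelial-like cells, from which no S100a8-rich cells were taken out. After subtraction of the neutrophil profile from each class, Ccr1 was 82.1 CPM in dendritic-like and 59.6 in T/NK-like cells. It was then 18.7 in fibroblast-like, 16.2 in epithelial-like and 16.5 in B-like cells. Ccrl2, a non-signalling receptor that presents chemoattractants, was 839 and 988 CPM in neutrophil-like and 134 and 181 in macrophage-like cells, within the threshold. It was past it in all kept cells (82.1 and 383 CPM) and in T/NK-like (11.4 and 208), epithelial-like (5.85 and 103), fibroblast-like (13.9 and 83.3) and dendritic-like cells (57.3 and 166). Ccrl2 belonged to a list of 4 receptors and decoys, with Ccr3, Ackr1 and Ackr2. Of these 4, 2 (Ccr3 and Ccrl2) were measured in neutrophil-like and 1 (Ccrl2) in macrophage-like cells, and 0 were called. The 8 genes of signalling below these receptors, such as the G protein subunit Gnai2 and the GTPase Rac2, gave 0 calls in both classes (medians 0.02 and 0.27). Among 6 genes that damp G protein-coupled receptors, Rgs2 was lower in both: 407 and 71.4 CPM in neutrophil-like and 282 and 109 in macrophage-like cells. Whether Rgs2 acts on Ccr1 here was not tested. The receptor kinase Grk2 was lower in neutrophil-like cells, 289 and 122 CPM, and the list medians were -0.90 and -0.35.

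Factors that act on AU-rich mRNAs went in both directions in neutrophil-like cells. Zfp36l1 was higher (397 and 1008 CPM) and Zfp36l2 lower (754 and 252), while Zfp36, the founding member of these decay proteins, was 2552 and 1381 CPM and within the threshold. Of the 5 factors, 1 was higher and 1 lower (median -0.88), and in macrophage-like cells 0 were called (median -0.34). Background percentages for lower calls were 12.0% in neutrophil-like and 1.18% in macrophage-like cells.

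Across 18 units, each a class in 1 library with at least 50 cells, the level of Ccl3 was most like those of Cxcl2 (Pearson r = 1.00 after rounding), Wfdc21, Clec4e, Ccl4 (0.97) and Clec4d. Ccl4 was most like Ccl3, Clec4d, Cxcl2, Il1b and Clec4e. Ccl5 was most like Klrd1 (0.88), Ms4a6b, Ly75, Cd7 and Calhm6, and had r of 0.19 with Ccl3. Ccr1 was most like Lilr4b (0.98), Lilrb4a, Cd300ld, Pygl and Cd300lf. The units share 2 libraries, their depth and the neutrophil transcripts described above, so these values are a description of likeness among 14364 genes and carry no test.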

How the data were processed

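Single-cell RNA of 2 KPPC tumour libraries was analysed, 1 per group. The matrices hold unnormalized UMI counts as deposited by the authors, and per the file headers they come from Cell Ranger 4 (vehicle) and 6.1.1 (takinib), while the submitters' processing notes name Cell Ranger 2.1.1, bcl2fastq, STAR 2.0.4b, Subread, featureCounts 1.45 and mm10. Vehicle barcodes were deposited unfiltered and every takinib barcode held at least 500 UMIs.

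Cells with at least 1000 UMIs, 500 genes and at most 20% mitochondrial UMIs were kept. Scrublet removed 314 vehicle doublets by its automatic threshold. In takinib that threshold marked 0.00373% of barcodes and had not worked, so 1607 barcodes, the top 6% by score, were taken out. Clustering was joint over both libraries, in scanpy 1.11.5 with igraph 0.11.9 (2000 variable genes, 30 components, 15 neighbours, Leiden resolution 1) without chemokine and chemokine receptor genes and with no batch correction, giving 26 clusters. Sub-clusters were made the same way within a class and are called by their leading genes. A cluster was named from 19 marker lists where at least 3 markers were found in 10% of its cells. It was left unnamed where another lineage with at least 3 such markers reached 0.75 of its score. The same held where another lineage had more of its leading genes. The main vehicle neutrophil-like cluster scored 0.380 for neutrophil and 0.300 for acinar, which had 1 such marker, so it kept its name. That naming rule was set after the data had been seen, and the names are rebuilt here rather than the authors'. Unnamed clusters held 98 vehicle and 1153 takinib cells.

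Counts were summed per class and library. Poisson, Clopper-Pearson and conditional ratio intervals (scipy 1.17.1) cover counting error only. With 1 library per group no test was made. A call is a log2 ratio past 1 with 10 CPM added, among genes with at least 50 counts in 1 of the libraries, and the calculation was checked on simulated data. Named genes are the 4 genes, the genes of 6 lists and the 5 genes most like each. Genes and lists were chosen with earlier results of these data known. Positions and transcripts are GENCODE vM21 on GRCm38, promoters RefSeq on GRCm38.p6, aligned with biopython 1.88. Alternatives covered depth, mitochondrial limit, thinning, the added CPM, minimum counts, doublets, clustering, naming, sex of origin, centring and neutrophil subtraction.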

Additional observations from a re-analysis of the deposited data

How the results depend on the processing

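Over 340 planned recalculations, 247 stayed within the counting error of the value reported, 87 moved beyond it and 6 changed the sign of a called ratio. Values here are log2 ratios of takinib over vehicle, and where a value moved the cause was not tested. In neutrophil-like cells (Ccl3 2.33, Ccl4 2.79, Ccr1 0.16) the 14 vehicle cells with at least 2000 UMIs and 1000 genes gave 3.91, 8.50 and 0.94, the 10% mitochondrial limit (37 vehicle cells) gave 2.89, 3.18 and 0.82, the 10 female-origin vehicle cells gave 2.58, 4.95 and 1.33, and centring on the median gene gave 2.68, 3.13 and 0.50. Thinning gave 2.51 for Ccl4. In macrophage-like cells (Ccl3 2.10, Ccl4 1.18, Ccl5 3.95, Ccr1 0.20) Ccl3, Ccl4 and Ccr1 came to 1.31, 0.61 and 0.08 after subtraction of the neutrophil profile, 1.62, 1.67 and 0.59 against female-origin cells, and 2.56, 1.58 and 0.30 with no doublets removed. The mitochondrial limit gave 1.98 for Ccl3 and 1.07 for Ccl4, the depth limit 1.14 for Ccl4, and 1 CPM in place of 10 gave 2.15 for Ccl3 and 4.72 for Ccl5. Ccl5 was 3.53 after thinning and 3.43 at Leiden resolution 0.5. In the clusters that both libraries filled, an alternative chosen after seeing the data, Ccl3, Ccl4, Ccl5 and Ccr1 came to 0.34, -1.06, 1.11 and -0.03. Ccl5 in T/NK-like cells (1.89) was 0.80 with chemokine genes kept in the clustering and 1.00 at resolution 0.5. Signs also changed in thinly filled classes: in B-like cells Ccl3 came to -0.76 and Ccl4 to -2.36 after subtraction, and Ccl4 to -0.77 under the depth limit and -0.40 under the mitochondrial limit. Against female-origin vehicle cells Ccl4 in dendritic-like cells came to -0.02 (13 vehicle cells) and Ccl5 in neutrophil-like cells to -0.77 (10 vehicle cells).

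With a minimum of 10 counts in place of 50, the genes past the threshold numbered 677 in place of 421 in T/NK-like, 554 in place of 194 in B-like and 469 in place of 151 in dendritic-like cells. No paired analysis was possible because each group has 1 library and no test was made. Depth limits the vehicle neutrophil-like, T/NK-like and B-like cells, where 1 or more of the 4 levels rest on fewer than 10 UMIs.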
